A study of Mus musculus with 6 samples.

Results

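The genes described here encode the molecules that present peptides and lipids to T cells and the machinery that supplies them, measured in livers with and without hepatocyte SHMT2. They were taken by name: every gene whose symbol starts with H2-, the prefix of the mouse major histocompatibility complex (MHC), together with B2m, Tap1, Tap2, Tapbp, Tapbpl, Psmb8, Psmb9, Psmb10, Nlrc5, Ciita, Cd74, Cd1d1, Erap1, Ctss and Lgmn, if at least 1 count was recorded in any mouse. Of 49671 genes in the table, 60 carried such a name and 48 had a count, 38 of them on chromosome 17. Of these 48 members, 45 passed the filter on low counts and were tested.

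Liver RNA was sequenced from 3 SHMT2fl/fl mice and 3 SHMT2HKO mice, labelled WT and KO in the deposited series. SHMT2fl/fl mice carry floxed Shmt2 alleles without Cre. SHMT2HKO mice carry the same alleles with Albumin-Cre, which is active in hepatocytes. Macrophages, dendritic cells, lymphocytes and bile duct cells also contribute RNA to the tissue, and Shmt2 was not measured by cell type here. All 6 mice were male and of the C57BL/6J background. They ate the AMLN diet for 18 weeks from 4 weeks of age. This diet is rich in fat, fructose and cholesterol and produces fatty liver disease. There was no group on another diet in these data. Counts on genes ranged from 23090837 to 34089722 per mouse, and the members held 1.16% to 1.24% of them in SHMT2fl/fl mice and 0.893% to 1.09% in SHMT2HKO mice. The targeted gene Shmt2 had 3866, 2897 and 3600 counts in SHMT2fl/fl mice and 587, 558 and 491 counts in SHMT2HKO mice, a log2 fold change of -2.04 (SE 0.16, edgeR adjusted p = 0.000639).

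MHC class I molecules consist of a heavy chain and the light chain beta-2 microglobulin, and nearly every nucleated cell shows them at its surface with peptides cut from its own proteins by the proteasome and pumped into the endoplasmic reticulum. MHC class II molecules consist of an alpha and a beta chain, are made mainly by dendritic cells, macrophages and B cells, and show peptides from material taken up into lysosomes. In the liver, hepatocytes carry class I, and class II is a feature of the resident and recruited immune cells that gather during steatohepatitis.

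The MHC class II pathway was lower in SHMT2HKO livers as a group. The 9 class II chains tested fell, 7 that passed the filter on low counts in each genotype by itself by 2.84-fold to 4.02-fold and H2-Eb2 and H2-Oa, which passed it through the SHMT2fl/fl mice alone, by 2.98-fold and 4.39-fold. Cd74, Ctss and the regulator Ciita fell too. Class I did not follow: of 28 class I genes tested, 4 fell, 3 rose and 21 did not pass the test. Over all 45 members, 16 fell and 4 rose at an adjusted p-value under 0.05, against 16.5% of the 16089 genes tested that fell and 12.5% that rose. The median log2 fold change was -1.62 over 13 class II genes and -0.05 over 28 class I genes, beside 0.03 over all genes tested. In bulk tissue, fewer cells of a type and less RNA per cell cannot be told apart, and this holds for each difference given here.

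**Figure D1:**
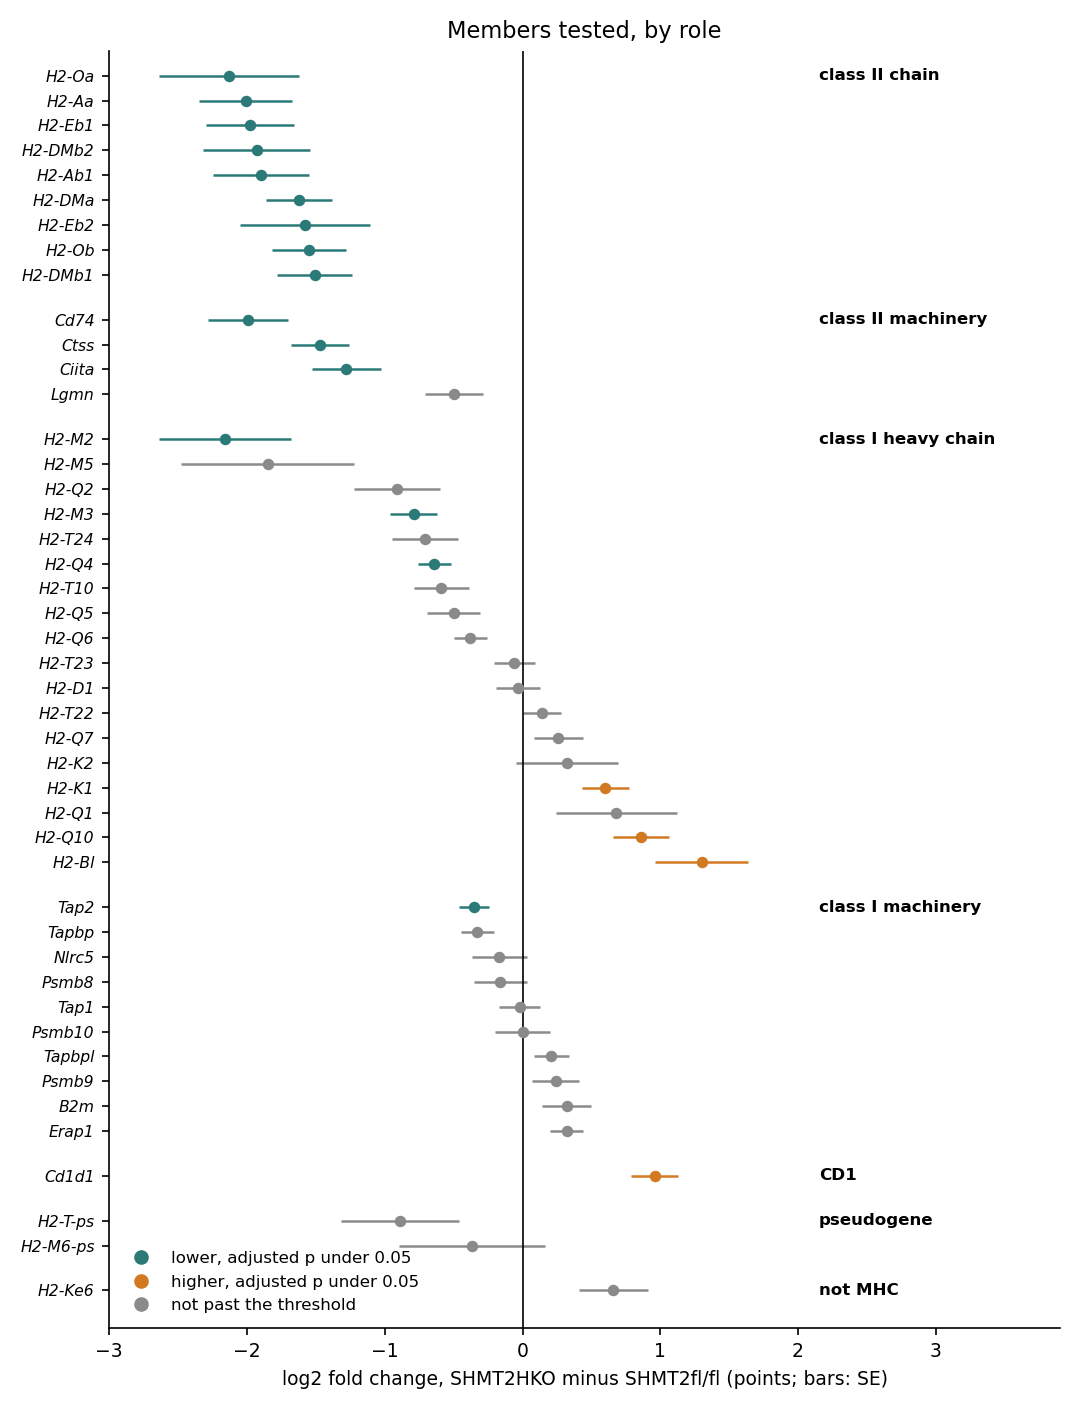
Log2 fold change between genotypes (x axis, SHMT2HKO minus SHMT2fl/fl, points, with bars for the standard error) for the 45 members tested, grouped by role; colours mark the edgeR call at an adjusted p-value under 0.05. All 13 class II genes lie to the left of 0, from -2.13 to -0.50, while the 28 class I genes range from -2.16 to 1.30.

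The classical class II chains form the peptide-binding molecules themselves. H2-Aa, the alpha chain of I-A, was at 241, 315 and 317 CPM (counts scaled to a common library size after TMM normalization) in SHMT2fl/fl mice 1, 2 and 3 and at 41.1, 64.5 and 111 CPM in SHMT2HKO mice 1, 2 and 3. Its partner H2-Ab1, the I-A beta chain, was at 314, 458 and 395 CPM against 55, 103 and 155 CPM. H2-Eb1, the beta chain of I-E, was at 296, 394 and 393 CPM against 51.8, 88.2 and 135 CPM. In all 3 genes every SHMT2HKO mouse lay below every SHMT2fl/fl mouse, and among SHMT2HKO mice the order was the same, with mouse 1 lowest and mouse 3 highest. The log2 fold changes were -2.01 (SE 0.34, edgeR adjusted p = 0.00477) for H2-Aa, -1.90 (SE 0.35, adjusted p = 0.00663) for H2-Ab1 and -1.98 (SE 0.32, adjusted p = 0.00438) for H2-Eb1. The I-E alpha chain is a pseudogene in this strain background, and H2-Ea-ps had no count in any mouse, which allows up to 3 counts, or 0.0734 to 0.152 CPM in a mouse. H2-Eb2, a second beta chain of the E region, was near the limit of detection, with 46, 30 and 41 counts in SHMT2fl/fl mice and 8, 3 and 15 in SHMT2HKO mice. Its log2 fold change was -1.58 (SE 0.47, edgeR adjusted p = 0.0359), and its adjusted p was between 0.0536 and 0.106 without any 1 of the mice other than SHMT2HKO mouse 3.

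The class II genes that edit and guard the peptide cargo moved with the chains. H2-DMa and H2-DMb1 encode H2-DM, which exchanges the invariant chain fragment for a peptide. H2-DMa was at 24.1, 38.7 and 28.3 CPM in SHMT2fl/fl mice and at 7.09, 10.9 and 11.6 CPM in SHMT2HKO mice, a log2 fold change of -1.62 (SE 0.24, edgeR adjusted p = 0.00275). H2-DMb1 was at 27.8, 37.4 and 28.3 CPM against 6.79, 11 and 15.1 CPM, a log2 fold change of -1.51 (SE 0.27, adjusted p = 0.00612). The groups did not overlap for either chain, nor for H2-DMb2, the second DM beta chain, at 2.98, 5.87 and 4.2 CPM against 0.637, 1.32 and 1.46 CPM (log2 fold change -1.93, SE 0.39, adjusted p = 0.00866). H2-DMb1 and H2-DMb2 share 5.74% and 5.4% of their 150-base windows, and reads from these windows cannot be assigned to 1 of them. Unique hits were counted, so such reads may be missing from both. H2-O, which restrains H2-DM and is best known from B cells, was lower in both chains. H2-Ob was at 3.08, 3.69 and 2.74 CPM against 0.891, 1.16 and 1.18 CPM (log2 fold change -1.55, SE 0.27, adjusted p = 0.00516). H2-Oa rested on 55, 60 and 85 counts against 10, 3 and 18 counts, with a log2 fold change of -2.13 (SE 0.51, adjusted p = 0.0165). That call did not hold without SHMT2fl/fl mouse 2 or mouse 3 (adjusted p = 0.0588 and 0.0675), and H2-Oa also shares 321 bases of exon with BC051537 on the opposite strand.

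Cd74, the invariant chain that occupies the class II groove during assembly, was at 720, 969 and 880 CPM in SHMT2fl/fl mice and at 142, 196 and 310 CPM in SHMT2HKO mice. The groups were far apart and again SHMT2HKO mouse 1 was lowest, with a log2 fold change of -1.99 (SE 0.29, edgeR adjusted p = 0.00269). Cathepsin S, encoded by Ctss, trims the invariant chain and was at 186, 179 and 210 CPM against 52.4, 62.5 and 92.8 CPM (log2 fold change -1.47, SE 0.21, adjusted p = 0.00261). Ciita, the coactivator on which class II transcription depends, had 333, 242 and 392 counts against 60, 76 and 125, or 2.55, 3.85 and 4.92 CPM in SHMT2HKO mice, without overlap (log2 fold change -1.28, SE 0.25, adjusted p = 0.00837). Lgmn, the lysosomal asparaginyl endopeptidase that makes an early cut in the invariant chain, was the 1 class II gene that did not pass. It was at 151, 106 and 145 CPM against 75.1, 88.1 and 121 CPM, and the highest SHMT2HKO mouse exceeded the lowest SHMT2fl/fl mouse (log2 fold change -0.50, SE 0.21, adjusted p = 0.108). Without SHMT2HKO mouse 3 the log2 fold change of Lgmn was -0.74 (adjusted p = 0.0184). In all, the groups did not overlap for 12 of 13 class II genes, KO lower, against 25% of all genes tested. Of the 9 class II chains, 7 reached the level of the filter in all mice of each genotype, whereas H2-Eb2 and H2-Oa passed it through the SHMT2fl/fl mice alone.

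**Figure D2:**
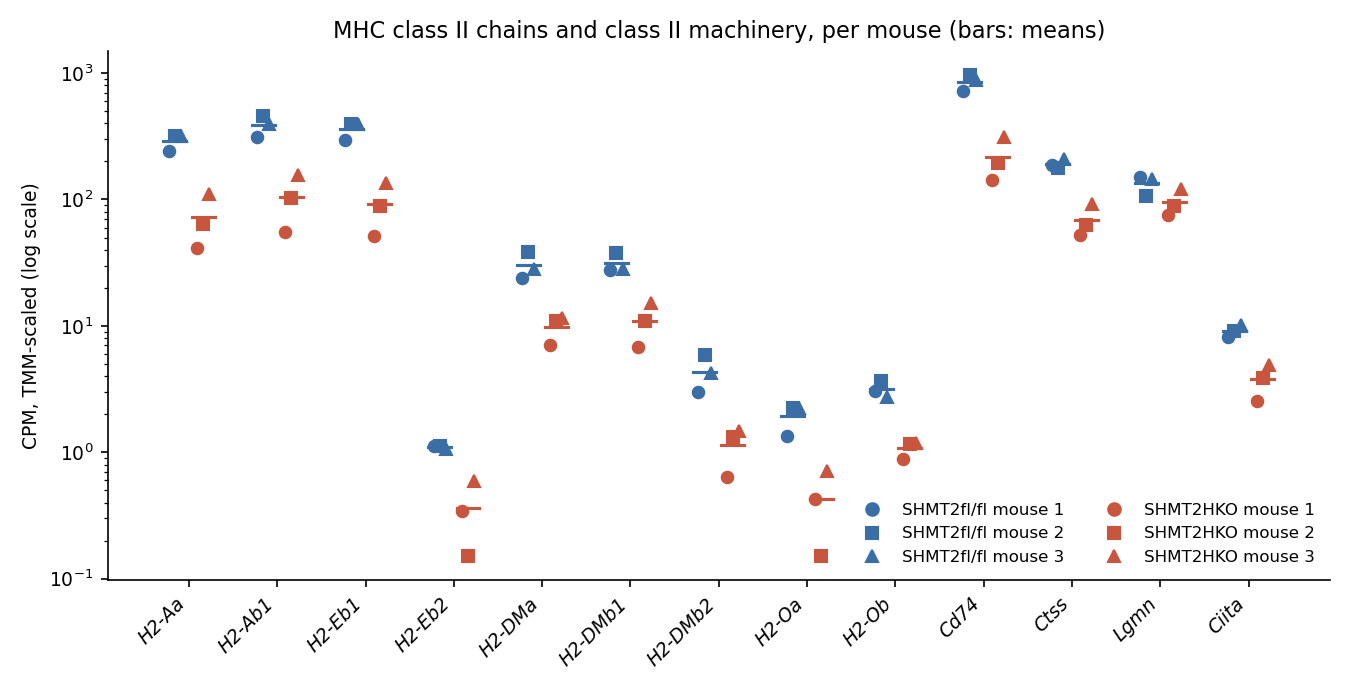
CPM per mouse (y axis, log scale) of the 9 class II chains, Cd74, Ctss, Lgmn and Ciita, with a symbol per mouse and a bar for each group mean. Apart from Lgmn, the SHMT2HKO mice (red) lie below the SHMT2fl/fl mice (blue) for every gene shown, and H2-Eb2 and H2-Oa are the lowest, between 0.152 and 2.26 CPM.

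Divided by exon length, Cd74 had the highest level of the 13 class II genes, at a mean of 510 CPM per kb in SHMT2fl/fl mice and 129 CPM per kb in SHMT2HKO mice. Among the chains H2-Eb1 was at 186 and 47.1 CPM per kb, H2-Ab1 at 151 and 40.6 CPM per kb, and H2-Aa at 76.6 and 19 CPM per kb. Ctss was at 141 and 51 CPM per kb and Lgmn at 57.6 and 40.8 CPM per kb. The exon length used joins the exons of all transcripts of a gene, so the order of genes per kb can depend on it. The joined exons of H2-Ab1 span 2568 bases, more than its longest transcript. Ciita was at 0.961 and 0.396 CPM per kb. The ratio of Cd74 to the summed class II chains did not separate the genotypes, with a log2 ratio of CPM of -0.34, -0.37 and -0.41 in SHMT2fl/fl mice and -0.21, -0.51 and -0.48 in SHMT2HKO mice, values that overlap. The spread of that ratio was wider in SHMT2HKO mice (SD 0.165) than in SHMT2fl/fl mice (SD 0.0351).

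Class II promoters are known for a shared module of an X1 box bound by RFX, an X2 box and a Y box bound by NF-Y, on which Ciita assembles, so the promoters of members were searched for the cores of these boxes. RefSeq promoters on GRCm38.p6, from 250 bases before to 50 bases after a start site, were given for 31 of the 45 tested members. The sequences shown are of H2-Aa and H2-Eb1, the chains of the presenting molecules, and of H2-DMb1 and H2-Ob, the class II genes tested whose window holds the X1 letters. They run 5′ to 3′ on the strand of the gene from 140 bases before the start site through the first 10 transcribed bases: H2-Aa at chr17:34287814-34287963 on the minus strand, H2-Eb1 at chr17:34305727-34305876, H2-DMb1 at chr17:34153051-34153200 and H2-Ob at chr17:34238765-34238914, these 3 on the plus strand. Capitals mark CCAAT (Y box, ATTGG on the other strand), CCTAGNNAC (X1 box) and TGACG (X2 core, CGTCA on the other strand, which overlaps it in H2-Aa).
H2-Aa: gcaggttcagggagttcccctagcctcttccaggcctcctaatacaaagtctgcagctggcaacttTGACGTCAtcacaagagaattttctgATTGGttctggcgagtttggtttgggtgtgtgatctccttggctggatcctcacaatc
H2-Eb1: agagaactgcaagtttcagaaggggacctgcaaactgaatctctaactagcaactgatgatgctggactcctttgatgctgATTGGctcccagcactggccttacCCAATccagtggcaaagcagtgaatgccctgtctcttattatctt
H2-DMb1: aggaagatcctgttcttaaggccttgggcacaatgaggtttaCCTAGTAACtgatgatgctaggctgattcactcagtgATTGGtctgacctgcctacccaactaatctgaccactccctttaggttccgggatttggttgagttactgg
H2-Ob: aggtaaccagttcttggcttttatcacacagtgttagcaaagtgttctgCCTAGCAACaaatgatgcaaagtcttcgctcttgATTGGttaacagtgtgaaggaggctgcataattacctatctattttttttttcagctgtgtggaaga

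A Y box core was found for all 8 class II chains that had a promoter, each time with a copy in the ATTGG orientation and in H2-Eb1 also as CCAAT, against 37.4% of the 32851 promoters in the table. With the start site counted as 0, it began at -48 in H2-Aa, -59 in H2-Eb1, -61 in H2-DMb1 and -57 in H2-Ob. For H2-DMa, which has 2 windows, it lay in only 1 of them, at -198, and the start site of that window was not found in a GENCODE transcript. The X1 letters were present in 2 of 8 class II chains, H2-DMb1 and H2-Ob, against 3.91% of all promoters, and in none of 12 class I heavy chains. The X2 core occurred in 1 of 8 class II chains, in 7 of 12 class I heavy chains and in 20.8% of all promoters. The interferon regulatory factor element, searched as GAAA, any 2 bases and GAAA, had no match in the windows of the 8 class II chains and 1 in Ctss, with 3.44% of all promoters holding it. These are matches of exact letters in 300-base windows and not sites of binding, and they were not tested against the changes in expression. A box that differs from the letters was not counted, as with actagcaac in H2-Eb1, so the lack of a match does not show that a box is absent.

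The classical class I heavy chains did not share the direction of class II. H2-D1 was at 1364, 1284 and 1330 CPM in SHMT2fl/fl mice and at 1189, 1414 and 1294 CPM in SHMT2HKO mice. These ranges overlap, and the log2 fold change was -0.03 (SE 0.16, edgeR adjusted p = 0.904). H2-K1 was at 1519, 1468 and 1553 CPM against 2328, 2520 and 2034 CPM, without overlap and 1.52-fold higher in SHMT2HKO mice (log2 fold change 0.60, SE 0.17, adjusted p = 0.029). The call on H2-K1 was fragile: it was lost without any 1 SHMT2fl/fl mouse or without SHMT2HKO mouse 2 (adjusted p = 0.0831 to 0.122), and with library sizes set by the ERCC spike-ins its log2 fold change was -0.16 (adjusted p = 0.762). The H2-K1 call was also lost without TMM and with upper-quartile scaling. The ratio of H2-D1 to H2-K1 within a mouse does not depend on the scaling of libraries. It was -0.16, -0.19 and -0.22 on the log2 scale in SHMT2fl/fl mice and -0.97, -0.83 and -0.65 in SHMT2HKO mice, lower in every SHMT2HKO mouse than in any SHMT2fl/fl mouse.

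H2-Q10, a secreted non-classical heavy chain made by hepatocytes, was at 2270, 2069 and 2529 CPM in SHMT2fl/fl mice and at 3613, 5022 and 3812 CPM in SHMT2HKO mice. It was 1.81-fold higher without overlap (log2 fold change 0.86, SE 0.20, edgeR adjusted p = 0.0159). The call was lost without any 1 SHMT2fl/fl mouse (adjusted p = 0.054 to 0.0823), without TMM and with ERCC scaling (log2 fold change 0.11, adjusted p = 0.833). Per kb of exon, H2-Q10 was at a mean of 527 CPM in SHMT2fl/fl mice, beside 515 for H2-K1 and 514 for H2-D1, and at 954, 781 and 504 CPM per kb in SHMT2HKO mice. These levels and the shares that follow depend on the exon length used, so they do not rank the genes. As a share of the class I heavy chain signal per kb, H2-Q10 took 27.3%, 26.6% and 29.8% in SHMT2fl/fl mice and 35%, 39.6% and 37.3% in SHMT2HKO mice. H2-D1 took 27.6%, 27.8% and 26.4% against 19.4%, 18.8% and 21.4%. Both shares separated the genotypes without overlap, in opposite directions, and shares within a mouse do not depend on the scaling. H2-Q10 shares 3.9% of its 150-base windows with H2-Q5 and H2-Q7, H2-D1 shares 1.79% with H2-Q1, and H2-K1 shares none.

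B2m encodes the light chain that every class I heavy chain and CD1 needs. It was at 1538, 1197 and 1420 CPM in SHMT2fl/fl mice and at 1878, 1786 and 1507 CPM in SHMT2HKO mice, which overlap (log2 fold change 0.32, SE 0.18, edgeR adjusted p = 0.223). Per kb it was the most abundant member, at a mean of 1611 and 2004 CPM per kb. The promoters of H2-K1, H2-D1, H2-Q10 and B2m are shown because these are the 4 most abundant class I genes and the heavy chains among them moved differently. They are at chr17:34000324-34000473 on the minus strand, chr17:35262954-35263103, chr17:35469949-35470098 and chr2:122147547-122147696, these 3 on the plus strand, with capitals for the same cores and for the interferon regulatory factor element. For H2-K1, which has 2 overlapping windows, the one with the later start site is shown.
H2-K1: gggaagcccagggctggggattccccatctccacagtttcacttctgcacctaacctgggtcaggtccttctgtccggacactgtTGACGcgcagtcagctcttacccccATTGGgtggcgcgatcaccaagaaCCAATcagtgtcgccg
H2-D1: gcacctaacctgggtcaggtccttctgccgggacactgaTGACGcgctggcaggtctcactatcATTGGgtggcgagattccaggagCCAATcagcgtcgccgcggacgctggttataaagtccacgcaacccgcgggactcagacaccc
H2-Q10: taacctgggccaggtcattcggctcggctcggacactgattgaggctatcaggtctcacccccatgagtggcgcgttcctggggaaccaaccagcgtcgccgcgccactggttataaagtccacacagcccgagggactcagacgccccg
B2m: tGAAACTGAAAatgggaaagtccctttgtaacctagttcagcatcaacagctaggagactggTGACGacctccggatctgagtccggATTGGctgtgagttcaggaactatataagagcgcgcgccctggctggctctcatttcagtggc

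H2-K1 and H2-D1 hold CCAAT in both orientations and a TGACG upstream of them. The H2-Q10 window holds none of the 4 motifs, in the 150 bases shown or in the 300 bases searched. B2m holds an interferon regulatory factor element from -139 to -130, a TGACG and an ATTGG. A Y box core was present in 10 of 12 class I heavy chains that had a promoter. The windows of Psmb9 and Tap1, which are transcribed in opposite directions from neighbouring start sites, overlap each other.

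**Figure D3:**
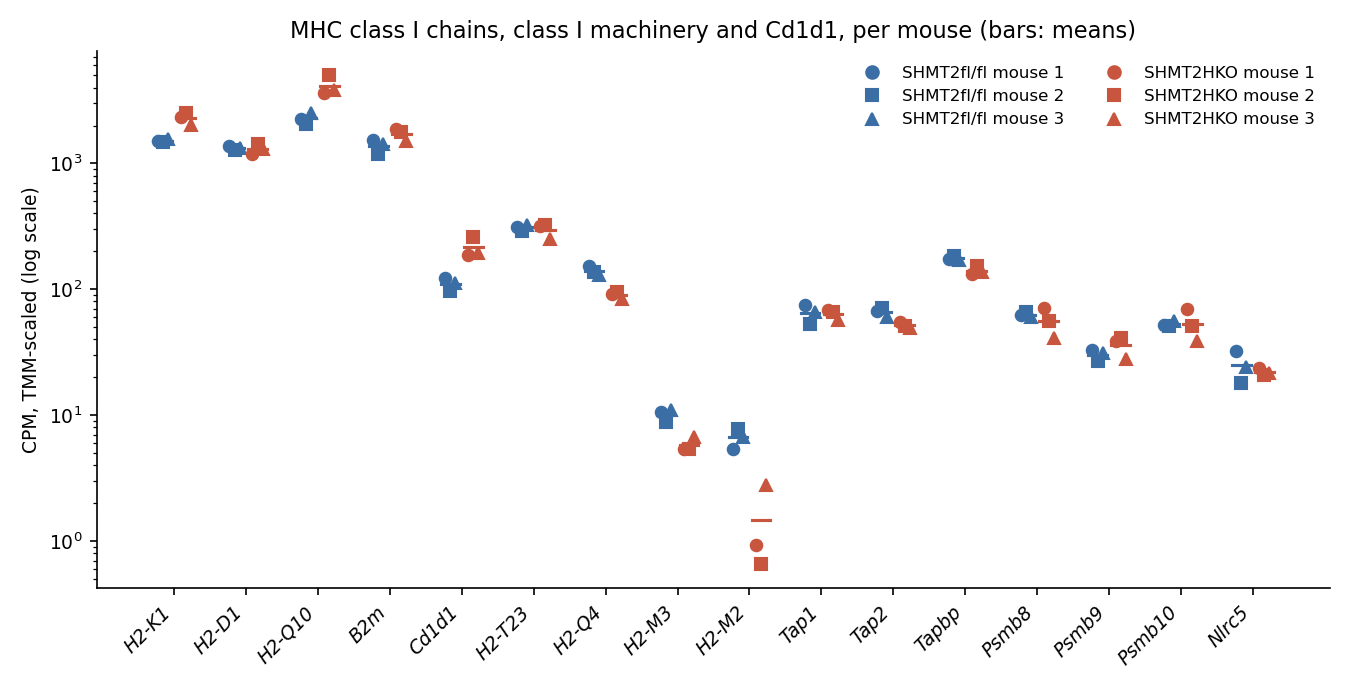
CPM per mouse (y axis, log scale) of 9 class I chains and chain-like genes and of 7 class I machinery genes, with a symbol per mouse and a bar for each group mean. H2-K1, H2-Q10 and Cd1d1 separate upwards in SHMT2HKO mice (for H2-K1 the direction flips with ERCC scaling), H2-Q4, H2-M3, H2-M2, Tap2 and Tapbp separate downwards, and the other genes shown overlap.

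The other non-classical heavy chains went both ways. H2-Q4 was at 152, 138 and 130 CPM in SHMT2fl/fl mice and at 92.3, 94.8 and 83.1 CPM in SHMT2HKO mice (log2 fold change -0.64, SE 0.12, edgeR adjusted p = 0.00681). It was the 1 class I call that none of the 15 refits with other settings or without a mouse changed, although 496 bases of its exons overlap Gm11131 on the opposite strand, whose reads cannot be told apart here. H2-M3, which presents formylated bacterial peptides, was at 5.43, 5.42 and 6.65 CPM in SHMT2HKO mice, all below the lowest SHMT2fl/fl mouse at 8.84 CPM (log2 fold change -0.79, SE 0.17, adjusted p = 0.0121). Its call was lost without SHMT2fl/fl mouse 1 (adjusted p = 0.0517) or mouse 3 (0.0637), and with ERCC scaling. H2-M2 was at 5.41, 7.83 and 6.71 CPM against 0.934, 0.658 and 2.79 CPM, the size of change seen in class II (log2 fold change -2.16, SE 0.48, adjusted p = 0.0136). Without SHMT2fl/fl mouse 2 the adjusted p of H2-M2 was 0.0506. H2-M2 was called with a log2 fold change of -2 or less, as were H2-Aa and H2-Oa, the last of which passed the filter through the SHMT2fl/fl mice alone. Of all genes tested, 4.05% were called at that size. H2-Bl, annotated as a polymorphic pseudogene, rose, from 2.67, 1.28 and 1.2 CPM to 4.41, 4.51 and 3.86 CPM (log2 fold change 1.30, SE 0.34, adjusted p = 0.0242). That call was lost without SHMT2fl/fl mouse 2 or 3 or SHMT2HKO mouse 2 (adjusted p = 0.0831, 0.0915 and 0.0692). The H2-Bl call was also lost without TMM and with ERCC scaling.

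The remaining 12 class I heavy chains did not pass the test. Among them H2-K2 is annotated as a transcribed pseudogene, and H2-Q5 and H2-T10 as polymorphic pseudogenes. Like H2-Bl, they were counted here with the class I heavy chains. H2-T23, which encodes Qa-1, the ligand of an inhibitory receptor of natural killer cells, was at 315, 293 and 322 CPM against 317, 322 and 250 CPM (log2 fold change -0.06, SE 0.15, edgeR adjusted p = 0.772). H2-T22 (0.14), H2-Q7 (0.26), H2-K2 (0.32) and H2-Q1 (0.68) had log2 fold changes above 0 in the TMM-scaled fit and overlapping groups. For H2-T22, H2-Q7 and H2-K2 the sign turned negative without TMM. H2-Q1 was at 33.9 CPM in SHMT2HKO mouse 1 and at 138 and 111 CPM in the other two, around a SHMT2fl/fl range of 57.2 to 61 CPM. Without SHMT2HKO mouse 1 its log2 fold change was 1.09 (adjusted p = 0.00115), and that of H2-K2 was 0.68 (adjusted p = 0.0155). H2-Q6, H2-Q5, H2-T10, H2-T24, H2-Q2 and H2-M5 had log2 fold changes of -0.38, -0.50, -0.59, -0.71, -0.91 and -1.85 with groups that did not overlap and adjusted p-values from 0.0513 to 0.0782. H2-M5 rested on 14, 18 and 18 counts against 1, 5 and 3 counts and passed the filter through the SHMT2fl/fl mice alone. Over all members the groups did not overlap for 23 genes lower in SHMT2HKO mice and for 6 genes higher, against 25% of all genes tested that lay lower and 21.9% that lay higher without overlap. The 23 include H2-M5, H2-Eb2 and H2-Oa. Of these, 9 lower and 3 higher genes were class I heavy chains.

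Cd1d1, which presents lipids to natural killer T cells, rose in SHMT2HKO livers. It was at 122, 96.8 and 112 CPM in SHMT2fl/fl mice and at 188, 262 and 195 CPM in SHMT2HKO mice, all above the highest SHMT2fl/fl mouse (log2 fold change 0.96, SE 0.17, edgeR adjusted p = 0.0052). The call held without any 1 mouse and was lost only with ERCC scaling (log2 fold change 0.21, adjusted p = 0.734). Cd1d1 shares 6.62% of its 150-base windows with Cd1d2, which had 2 to 15 counts in a mouse.

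Of 10 genes that supply and load class I, 1 passed the test. TAP, built from Tap1 and Tap2, pumps peptides into the endoplasmic reticulum. Tap1 was at 74.4, 53.1 and 66.2 CPM in SHMT2fl/fl mice and at 68.9, 65.4 and 56.5 CPM in SHMT2HKO mice (log2 fold change -0.02, SE 0.15, edgeR adjusted p = 0.927). Tap2 was at 67.4, 70.4 and 60.7 CPM against 55.4, 51 and 49.5 CPM (log2 fold change -0.35, SE 0.11, adjusted p = 0.04996). The groups overlap for Tap1 and not for Tap2, whose call sat at the threshold and was lost in 10 of 15 refits, among them those without any 1 mouse other than SHMT2HKO mouse 1 (adjusted p = 0.0581 to 0.169), and 698 bases of its exons overlap genes on the opposite strand. Tapasin, encoded by Tapbp, which holds class I to TAP, did not pass with a log2 fold change of -0.33 (adjusted p = 0.0759), nor did its relative Tapbpl at 0.21 (adjusted p = 0.267, below 0 without TMM). Erap1, which trims peptides in the endoplasmic reticulum, was separated upwards with a log2 fold change of 0.32 (adjusted p = 0.0871) that turned to -0.10 without TMM and -0.35 with ERCC scaling.

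The immunoproteasome subunits Psmb8, Psmb9 and Psmb10 take the place of the constitutive subunits Psmb5, Psmb6 and Psmb7 under interferon. Psmb8 was at 62.6, 66.2 and 59.7 CPM in SHMT2fl/fl mice and at 71.6, 55.7 and 41.1 CPM in SHMT2HKO mice. Psmb9 was at 33.2, 26.8 and 30.9 CPM against 38.9, 41.2 and 27.7 CPM, and Psmb10 at 51.7, 51.5 and 56.2 CPM against 69.6, 50.8 and 39 CPM. All 3 overlap between the genotypes, with log2 fold changes of -0.16, 0.24 and -0.00 (edgeR adjusted p = 0.557, 0.314 and 0.998), and in SHMT2HKO mice Psmb8 and Psmb10 were highest in mouse 1 and lowest in mouse 3, the reverse of the class II order. Of the constitutive subunits, Psmb5 (log2 fold change 0.50, adjusted p = 0.0479) and Psmb7 (0.67, adjusted p = 0.0255) rose, and Psmb6 did not pass at 0.52 (adjusted p = 0.0849). The calls of Psmb5 and Psmb7 were lost in 11 and 6 of 15 refits, among them those without any 1 SHMT2fl/fl mouse or SHMT2HKO mouse 2 (adjusted p up to 0.148), and with ERCC scaling their log2 fold changes were -0.30 and -0.14. The log2 ratio of Psmb8 to Psmb5 was -0.90, -0.79 and -1.06 in SHMT2fl/fl mice and -1.22, -1.85 and -1.71 in SHMT2HKO mice. The log2 ratio of Psmb10 to Psmb7 was -1.06, -1.21 and -1.05 against -1.40, -2.14 and -1.83, and that of Psmb9 to Psmb6 overlapped. Psmb9 and Tap1 share 212 bases of exon on opposite strands.

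These class I genes stand among the class II genes on chromosome 17 of GRCm38. In GENCODE M21, H2-DMb1 lies at chr17:34153072-34160230 and H2-Ob at chr17:34238903-34254414, and between them are Psmb9 (chr17:34181987-34187764), Tap1 (chr17:34187553-34197225), Psmb8 (chr17:34197721-34201454) and Tap2 (chr17:34203527-34216321). The outer pair fell with log2 fold changes of -1.51 and -1.55, while the 4 genes between them ranged from -0.35 to 0.24. H2-Ab1 (chr17:34257689-34269419), H2-Aa (chr17:34282744-34287823) and H2-Eb1 (chr17:34305867-34316674) follow on the far side of H2-Ob, with H2-K1 (chr17:33996017-34000347) before this stretch and H2-D1 (chr17:35262730-35267499) and H2-Q10 (chr17:35470089-35474563) after it. Outside chromosome 17, Ciita lies at chr16:10480059-10528418, B2m at chr2:122147686-122153083 and Cd1d1 at chr3:86995834-86999441.

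Nlrc5, the class I counterpart of Ciita, was at 32.3, 18.1 and 24.3 CPM in SHMT2fl/fl mice and at 23.6, 20.9 and 21.8 CPM in SHMT2HKO mice. The SHMT2HKO values lay inside the SHMT2fl/fl range (log2 fold change -0.17, SE 0.20, edgeR adjusted p = 0.553), unlike those of Ciita. Whether Ciita and Nlrc5 differed from each other in their change was not tested.

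Over the 28 class I genes tested, 4 fell and 3 rose, which is near or under the share of all genes tested. This split depends on scaling: without TMM it was 14 lower and 0 higher, and with ERCC scaling 3 lower and 0 higher. Over the same 2 scalings the median of all genes moved from 0.03 to -0.40 and -0.69, and the split of all genes from 2651 lower and 2012 higher to 4923 and 539 and to 2759 and 107. The class I median, at -0.48 and -0.85, stayed near that shift, while the class II median was -2.03 and -2.23. Of the 13 class II genes, 13 were called lower without TMM and 12 with ERCC scaling.

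Set against each other within a mouse, the classes parted in every SHMT2HKO liver. The class II chains summed to 912, 1256 and 1171 CPM in SHMT2fl/fl mice and to 164, 280 and 432 CPM in SHMT2HKO mice, a mean of 1113 ± 179 against 292 ± 134 CPM (SD, n = 3 mice each). The class I heavy chains summed to 6106, 5690 and 6327 CPM against 7972, 9972 and 7927 CPM, a mean of 6041 ± 323 against 8624 ± 1168 CPM (SD, n = 3 each). The groups did not overlap for either sum. Without TMM or with ERCC scaling the class I sums overlapped, at 1.06 and 0.851 times the SHMT2fl/fl mean, and the class II sums did not, at 0.202 and 0.187 times. The log2 ratio of class II to class I, which no scaling changes, was -2.74, -2.18 and -2.43 in SHMT2fl/fl mice and -5.60, -5.15 and -4.20 in SHMT2HKO mice, a difference of -2.53 between the means (SD 0.281 and 0.715). The highest SHMT2HKO mouse, mouse 3, stayed far below the lowest SHMT2fl/fl mouse, mouse 1. With the classical chains alone the difference was -2.40, without H2-Q10 it was -2.28, and when each gene counted equally on the log2 scale it was -1.41. No p-value is given for this ratio, since the members were chosen with results of these data known.

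**Figure D4:**
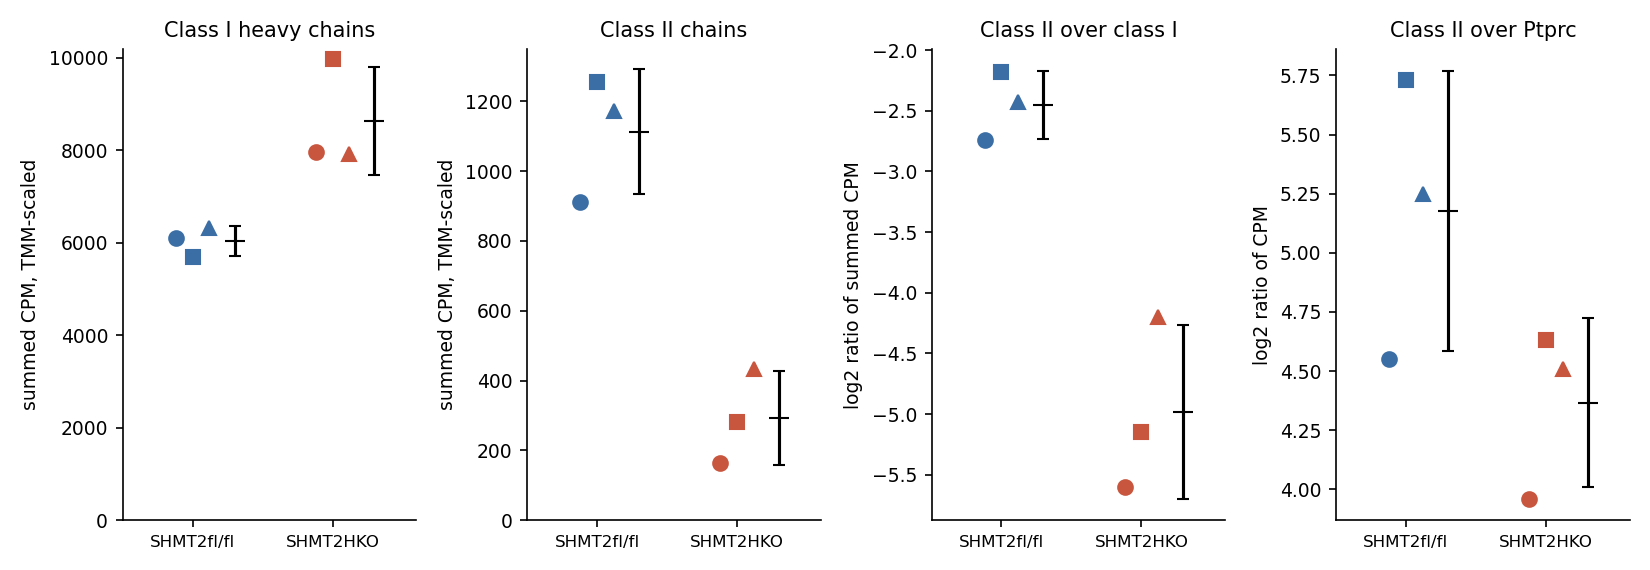
Per mouse, the summed CPM of class I heavy chains and of class II chains, the log2 ratio of class II to class I, and the log2 ratio of the class II chains to Ptprc (y axes, circles, squares and triangles for mice 1, 2 and 3, black bars for mean and SD, n = 3 mice). Class I sums are higher in SHMT2HKO mice with TMM scaling but overlap without TMM and with ERCC scaling, class II sums and the ratio of the classes are lower without overlap, and the ratio to Ptprc overlaps.

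Marker genes of immune and other liver cell types also differed between the genotypes. The marker list for dendritic cells summed to 53.9 to 61.3 CPM in SHMT2fl/fl mice and to 18 to 38 CPM in SHMT2HKO mice, with 4 of 7 genes lower. Of these, Xcr1 was called in every refit, while Flt3, Itgax and Ccr7 were not without any 1 SHMT2fl/fl mouse or SHMT2HKO mouse 2 (adjusted p = 0.0523 to 0.108). The list for T or NK cells summed to 20.9 to 23.5 CPM against 4.71 to 7.55 CPM, with 6 of 7 lower, of which Klrb1c lost its call in 4 of 14 refits. In the pan-leukocyte list 3 of 4 genes were lower (281 to 322 against 168 to 231 CPM). The B cell list, at 4.88 to 5.9 against 1.91 to 4.3 CPM, had no gene of 4 that passed the test. The Kupffer cell or macrophage list split, with a sum of 218 to 349 against 359 to 447 CPM. Cd68 and Csf1r were lower (log2 fold changes -0.85 and -0.69), and Clec4f, Timd4 and Vsig4, markers of resident Kupffer cells, were higher (2.83, 3.57 and 1.49). Vsig4 lost its call in 6 of 15 refits, among them those without TMM and with ERCC scaling (adjusted p = 0.0669 and 0.39). Marco (1.55, adjusted p = 0.245), Cd5l (0.64, adjusted p = 0.194) and Adgre1 (-0.72, adjusted p = 0.0588) did not pass the test. All 5 cholangiocyte markers were lower (951 to 1181 against 128 to 245 CPM). Of 8 hepatocyte markers 2 were called higher and none lower (54027 to 65746 against 66374 to 104454 CPM). Apoa2 had a log2 fold change of 1.55, and 0.63 with ERCC scaling, where its call was lost (adjusted p = 0.267). Ttr, at 0.82 (edgeR adjusted p = 0.0498), overlapped between the genotypes and lost its call in 11 of 15 refits, with -0.06 under ERCC scaling. Of 6 endothelial markers 2 were higher and none lower (160 to 185 against 227 to 266 CPM), and of 5 stellate cell markers 1 was lower and 1 higher (350 to 420 against 222 to 429 CPM). Stab2 was at a log2 fold change of 0.13 without TMM (adjusted p = 0.526) and -0.15 with ERCC scaling, where Clec4g also lost its call (adjusted p = 0.104). Des, the stellate marker called lower, lost its call in 4 of 15 refits. Reln, called higher, lost it without TMM and with ERCC scaling. None of these markers was under 3 counts in every mouse. The marker sums are TMM-scaled and were not computed with other scalings.

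The class II order among SHMT2HKO mice, from mouse 1 to mouse 2 to mouse 3, was also that of the dendritic cell (18, 20.9 and 38 CPM), pan-leukocyte (168, 193 and 231 CPM), stellate cell (222, 326 and 429 CPM) and endothelial (227, 263 and 266 CPM) sums. The T or NK cell (7.55, 4.71 and 5.51 CPM), B cell (1.91, 4.3 and 2.6 CPM) and Kupffer cell or macrophage (362, 447 and 359 CPM) sums did not follow it, the cholangiocyte sum was 128, 128 and 245 CPM, and the hepatocyte sum ran in reverse (104454, 100831 and 66374 CPM). Among SHMT2fl/fl mice the class II sum was highest in mouse 2 (912, 1256 and 1171 CPM). The dendritic cell sum had the same order there (53.9, 61.3 and 55.4 CPM). The pan-leukocyte (321, 281 and 322 CPM), stellate cell (420, 350 and 415 CPM) and endothelial (185, 160 and 171 CPM) sums were instead lowest in mouse 2. An order of 3 mice can match by chance, and these orders were not tested. The log2 ratio of class II chains to Ptprc, which encodes the leukocyte surface protein CD45, was 4.55, 5.73 and 5.25 in SHMT2fl/fl mice and 3.96, 4.63 and 4.51 in SHMT2HKO mice. These values overlap and their means differed by -0.81. Ptprc itself was lower, with a log2 fold change of -1.19 (edgeR adjusted p = 0.0133, and 0.0524 without SHMT2fl/fl mouse 1 or SHMT2HKO mouse 2). The ratio to Cd68 was lower by 1.17 in the mean and that to Adgre1 by 1.26, both without overlap. The ratio to Clec4f, which itself was higher in SHMT2HKO mice, was lower by 4.91 in the mean, also without overlap. The part of cell composition in the class II difference was not tested.

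**Figure D5:**
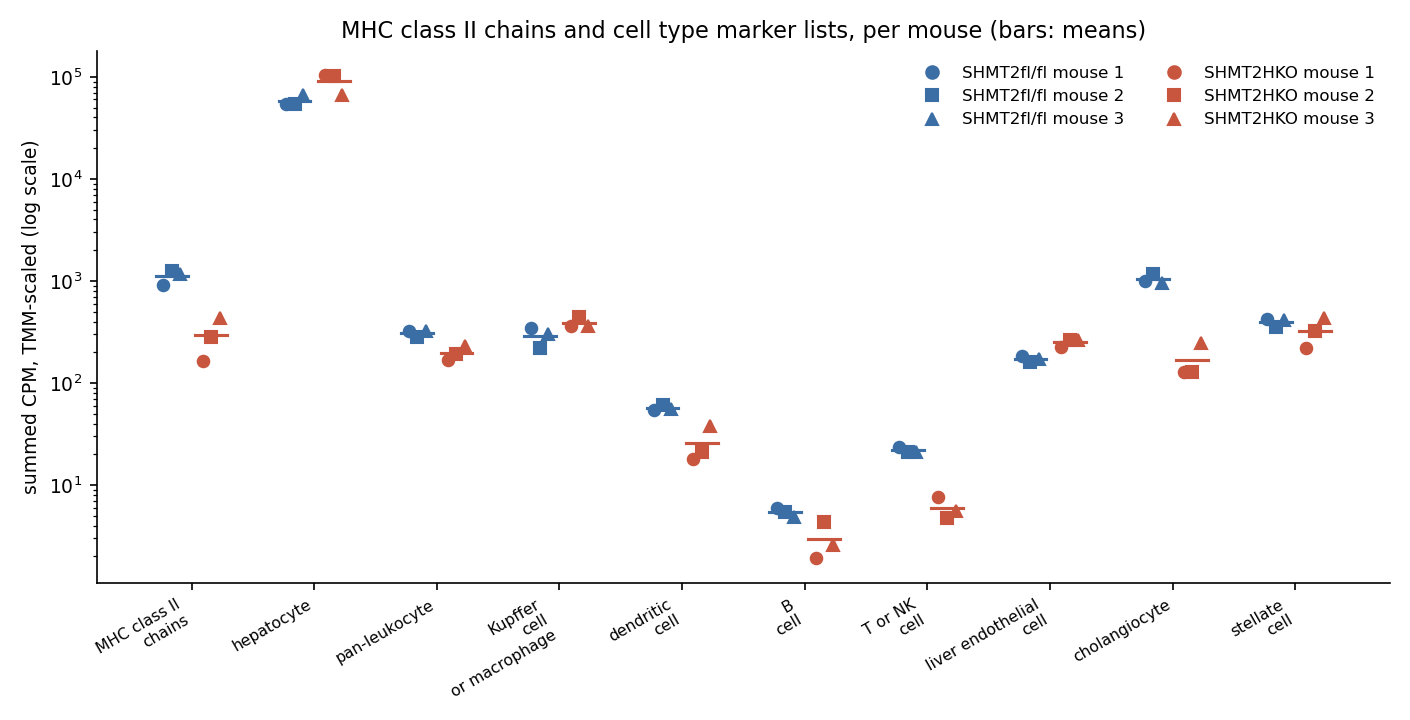
Summed CPM per mouse (y axis, log scale) of the class II chains and of 9 cell type marker lists, with a symbol per mouse and a bar for each group mean. With TMM scaling the dendritic cell, T or NK cell, B cell, pan-leukocyte and cholangiocyte sums lie lower in SHMT2HKO mice without overlap, like the class II sum. The hepatocyte, Kupffer cell or macrophage and endothelial sums lie higher with TMM scaling, and the marker sums were not computed with other scalings.

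Of 43 further genes of antigen presentation outside the members, 41 were tested, 8 fell (19.5%) and 7 rose, with a median log2 fold change of 0.02. These counts are near the shares of all genes tested, of which 16.5% fell and 12.5% rose. The 7 calls upwards were all lost without TMM, and with ERCC scaling all 7 log2 fold changes turned negative, from -0.30 to -0.06. Of the 8 calls downwards, Icosl, Cd40, Irf8 and Ifngr1 held in every refit. Costimulation, the second signal that an antigen-presenting cell gives to a T cell, was lower in 3 of 4 genes. Icosl was at 8.19, 8.88 and 9.63 CPM in SHMT2fl/fl mice and at 2.04, 1.77 and 2.87 CPM in SHMT2HKO mice (log2 fold change -1.99, SE 0.23, edgeR adjusted p = 0.00132). Cd40 (log2 fold change -1.78, adjusted p = 0.00224) and Cd86 (-0.91, adjusted p = 0.0168) were lower too, and Cd80 was at -1.22 (adjusted p = 0.112). Cd86 was not called without SHMT2fl/fl mouse 1 or 3 or SHMT2HKO mouse 2 (adjusted p = 0.0718, 0.0637 and 0.054). In the interferon-gamma group, the receptor chains Ifngr1 (-1.06, adjusted p = 0.00803) and Ifngr2 (-0.41, adjusted p = 0.028) and the myeloid factor Irf8 (-1.17, adjusted p = 0.00111) fell, and Irf2 rose (0.54, adjusted p = 0.0352, -0.20 with ERCC scaling). Ifngr2 and Irf2 each lost their call in 7 of 15 refits, including those without any 1 SHMT2fl/fl mouse or SHMT2HKO mouse 1 (adjusted p = 0.0648 to 0.12), and Ifngr2 also without SHMT2HKO mouse 2 (0.0879). Irf1, a transcription factor induced by interferon, did not pass the test (-0.42, adjusted p = 0.0652). Ifng itself had 2 to 6 counts in a mouse and was below the filter, so no difference was detectable at this depth.

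Among the factors that bind MHC promoters, Nfyb was higher (log2 fold change 0.50, edgeR adjusted p = 0.0128, -0.24 with ERCC scaling, adjusted p = 0.0579 and 0.0596 without SHMT2fl/fl mouse 2 or 3) and the other 6 did not pass, Rfx5 among them (-0.35, adjusted p = 0.111). Of the proteins that load or supply peptides, the aminopeptidase Lap3 rose (0.72, adjusted p = 0.0105, -0.06 with ERCC scaling) and the endopeptidase Thop1 fell (-0.44, adjusted p = 0.0358). Lap3 was not called without SHMT2fl/fl mouse 2 (adjusted p = 0.056). Thop1 lost its call in 7 of 15 refits, among them those without any 1 SHMT2fl/fl mouse or SHMT2HKO mouse 2 (adjusted p = 0.0587 to 0.145). The chaperones Calr and Pdia3 were at 0.65 and 0.57 (adjusted p = 0.0589 and 0.0521), and the proteasome activators Psme1 and Psme2 at 0.13 and 0.18 (adjusted p = 0.477 and 0.433). On the class II side, the thiol reductase Ifi30 fell (-0.56, adjusted p = 0.0227) while the lysosomal cathepsins Ctsl, Ctsb and Ctsd lay between -0.26 and 0.02 and did not pass. March8, a ubiquitin ligase that can remove class II from the surface, rose (0.56, adjusted p = 0.0192), and so did Fcgrt, the neonatal Fc receptor, which also pairs with B2m (0.50, adjusted p = 0.033), though with ERCC scaling they were at -0.08 and -0.25. Neither was called without any 1 SHMT2fl/fl mouse (adjusted p = 0.0618 to 0.124), nor was Fcgrt without SHMT2HKO mouse 2 (0.0963). Ifi30 was not called without SHMT2fl/fl mouse 2 or 3 or SHMT2HKO mouse 2 (adjusted p = 0.0654 to 0.0988), nor with ERCC scaling (0.0879).

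H2-M10.6 and H2-Q3 had 1 count in 1 mouse each, and H2-T3 had 0, 3 and 4 counts in SHMT2fl/fl mice and 0, 2 and 0 in SHMT2HKO mice, so these 3 were not tested. H2-Q3 is also annotated as a pseudogene and was listed with the class I heavy chains. The pseudogenes H2-T-ps and H2-M6-ps, which were kept apart from the class I heavy chains, had log2 fold changes of -0.89 and -0.37 (edgeR adjusted p = 0.155 and 0.631). H2-Ke6 is Hsd17b8, an enzyme gene named for its place in the MHC, and 87.2% of its 150-base windows are shared with the overlapping Gm20427, so its log2 fold change of 0.66 (adjusted p = 0.0836) cannot be assigned to it. The 12 named genes without a count were H2-Ea-ps, H2-Pa, H2-Pb, H2-M1, H2-M9, H2-M11, H2-M10.1 to H2-M10.5 and H2-M10.5-ps1.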

How the data were processed

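The deposited values are raw counts per gene, which the authors obtained from read pairs of liver RNA without normalization. Per the submitters' processing notes and the study's methods, reads were trimmed with Trimmomatic 0.36, aligned with STAR 2.5.2b to GRCm38 with ERCC sequences, and unique hits on genes were counted with featureCounts of Subread 1.5.2. The use of the strand and the handling of overlapping genes are not given in the sources used here, so opposite-strand overlaps cannot be told apart.

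Each column was mapped to its group by its label. Genes were filtered with filterByExpr and tested with the quasi-likelihood F test of edgeR 4.0.16 in R 4.3.3 (two-sided, TMM, robust), with Benjamini-Hochberg adjustment over 16089 genes. Every adjusted p-value is from this fit unless another is named, and a gene was called at an adjusted p under 0.05. The 92 ERCC spike-ins entered neither the library sizes nor the fit. CPM use TMM-scaled library sizes, in which 1 count is 0.0245 to 0.0506 CPM. CPM per kb divide by the joined length of all exons of a gene in GENCODE M21. Members with few counts are given as counts, since counting error is large there. Alternatives were DESeq2 1.42.0, limma-voom (limma 3.58.1), other scalings and filters, a replicate block, and leaving out each mouse. The study's own cutoff, a fold limit and the class II sum with Cd74 were added after seeing the data.

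The members, gene lists and roles were chosen with earlier results of these data known. Members that passed the filter are named or counted by role, with full values for the main chains, their machinery and members whose call goes against most of their role, and of the other pathway genes those that passed the test and a few fixed ones are named, of which 1 is not reported here. The labels give 3 mice per genotype but no litter or batch. Between mice of the same number the correlations of deviations from the group means were -0.05, 0.01 and -0.08. On simulated counts for 15682 genes with 192 changed 4-fold, 84.4% were recovered and 6.36% of calls were false. The reported fit called 4663 of 16089 genes. The share of false calls at changes under 4-fold, or with that many genes changed, was not tested.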

Additional observations from a re-analysis of the deposited data

How the results depend on the processing

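Every class II gene tested kept its direction under each alternative run, with 10 to 13 called lower. The 10 under a filter of 10 counts in every mouse came with fewer class II genes tested. Class I calls moved more. Class I genes called lower, 4 in the reported fit, were 9 with DESeq2, 14 without TMM, 10 with upper-quartile scaling, 9 with at least 10 counts in every mouse, 11 at the study's cutoff (p under 0.05 and adjusted p under 0.25, added after seeing the data), 1 with an absolute log2 fold change of 1 or more (also added), and 2 to 5 without 1 mouse. Class I genes called higher, 3 in the reported fit, were 0 without TMM, 0 with ERCC scaling, 1 with the replicate block, 1 with the fold limit, and 0 to 5 without 1 mouse. The correlations of deviations gave no sign that equal replicate numbers pair the mice, but they cannot exclude a shared litter or batch. The replicate block left 11 class II genes called lower. It cost the calls of H2-K1, H2-Q10, Tap2 and H2-Eb2 (adjusted p = 0.0964, 0.0584, 0.0868 and 0.0659).

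The class II median of -1.62 was -2.03 without TMM, -2.23 with ERCC scaling and -1.50 to -2.15 without 1 mouse. The class I median of -0.05 was -0.48, -0.85 and -0.17 to 0.01, the last without SHMT2HKO mouse 3. The difference in the log2 ratio of the classes, -2.53, was -1.41 with the mean of log2 CPM and -2.22 to -2.93 without 1 mouse. Of all genes, 4923 fell and 539 rose without TMM, 107 rose with ERCC scaling, and 1621 to 3076 fell and 805 to 2521 rose without 1 mouse.

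Some single members turned in sign. Without TMM the log2 fold changes were -0.10 for H2-K2, -0.19 for H2-Q7, -0.29 for H2-T22, -0.12 for B2m, -0.20 for Psmb9, -0.10 for Erap1 and -0.22 for Tapbpl. With ERCC scaling they were -0.16 for H2-K1, -0.33 for H2-K2, -0.56 for H2-Q7, -0.64 for H2-T22, -0.47 for B2m, -0.58 for Psmb9, -0.35 for Erap1, -0.52 for Tapbpl and -0.18 for H2-Ke6. Psmb10 was at 0.01 with DESeq2. Without 1 mouse, the range was -0.24 to 0.15 for Psmb10, -0.09 to 0.03 for H2-D1, -0.06 to 0.68 for H2-K2, -0.13 to 0.02 for H2-T23, -0.14 to 0.09 for Tap1, -0.36 to 0.06 for Nlrc5 and -0.69 to 0.01 for H2-M6-ps. The cause of these shifts was not tested.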
